A study of Mus musculus with 6 samples.

Results

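The Ikaros family comprises 5 genes, Ikzf1 (Ikaros), Ikzf2 (Helios), Ikzf3 (Aiolos), Ikzf4 (Eos) and Ikzf5 (Pegasus), and it was examined for Ikaros peaks on or near its own members in mouse natural killer (NK) cells. Members of the peak set were taken by name, as peaks that the authors' gene column assigned to a family gene, and by position, as peaks overlapping chr11:11634962-11822930 (mm10), which is Ikzf1 with 50 kb on each side. By this rule 4 of 4111 peaks belonged to the family, 0 of 685 in WT replicate 1, 2 of 2084 in WT replicate 2 and 2 of 1342 in WT replicate 3. Merging peaks that shared at least 1 base gave 3 regions. Of the 5 genes, the gene column named 1, Ikzf2, in 1 list, and it named Ikzf1, Ikzf3, Ikzf4 and Ikzf5 in 0 lists. Over all 21896 protein-coding genes of the RefSeq table, 9.36% were named in at least 1 list and 4.39% in 2 or more.

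The data are chromatin immunoprecipitation with sequencing (ChIP-seq), in which an antibody pulls down a protein with the DNA it is crosslinked to. The series has 6 libraries from splenic NK cells expanded in culture with IL-15 at 50 ng/ml, 3 of wild type (WT) genotype and 3 of Ikzf1 knockout (KO) genotype, where the deletion was conditional on NKp46, a receptor of NK cells. All were precipitated with the same anti-Ikzf1 antibody (sc-13039), and the labels give no strain, age or sex. The results rest on 1 peak list for each WT library. The KO samples were not analysed here, and the control library behind the authors' peak calls is not given. Whether those calls set any peak against cells lacking Ikaros is therefore not known. The labels do not say whether the WT replicates came from separate animals, and read depth is unknown, since the lists carry no counts of reads.

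Ikaros family proteins are zinc finger transcription factors. A group of fingers near the start of the protein binds DNA, and a pair at the other end joins family members into dimers, so that Ikaros can pair with Aiolos, Helios or Eos. In lymphocytes these proteins recruit chromatin remodellers and co-repressors, and a factor that occupies its own gene is the textbook form of autoregulation. The question addressed here was whether Ikaros peaks lay at the family's genes.

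No peak of any list fell within the span of a family gene. The count was 0 of 5 genes (95% Clopper-Pearson interval 0 to 52.2%), beside 8.25% of all protein-coding genes. Peaks near the family lay outside the genes, and they differed in how far away they were and in how many lists held them. Within 50 kb of the span, 4 of 5 genes had a peak in at least 1 list (interval 28.4 to 99.5%, background 24.1%). A region shared by at least 2 lists lay there for 2 of 5, Ikzf1 and Ikzf3 (interval 5.27 to 85.3%, background 12.2%). The backgrounds cover genes of every length and were not matched to the family's spans of 21.9 to 156 kb. A longer span takes in more bases, and an effect of length was not tested. List by list, a peak lay within 50 kb of 1 gene, Ikzf3, in replicate 1 (background 7.55%), of 4 genes, all but Ikzf4, in replicate 2 (background 20.3%) and of 2 genes, Ikzf1 and Ikzf3, in replicate 3 (background 15.0%). Ikzf3 was the 1 gene with a region in all 3 lists within that distance (background 5.51%). With 5 genes these counts are descriptions. They were taken over all peaks, and for Ikzf1 and Ikzf2 the peaks counted within 50 kb are those that the rule chose.

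**Figure D1:**
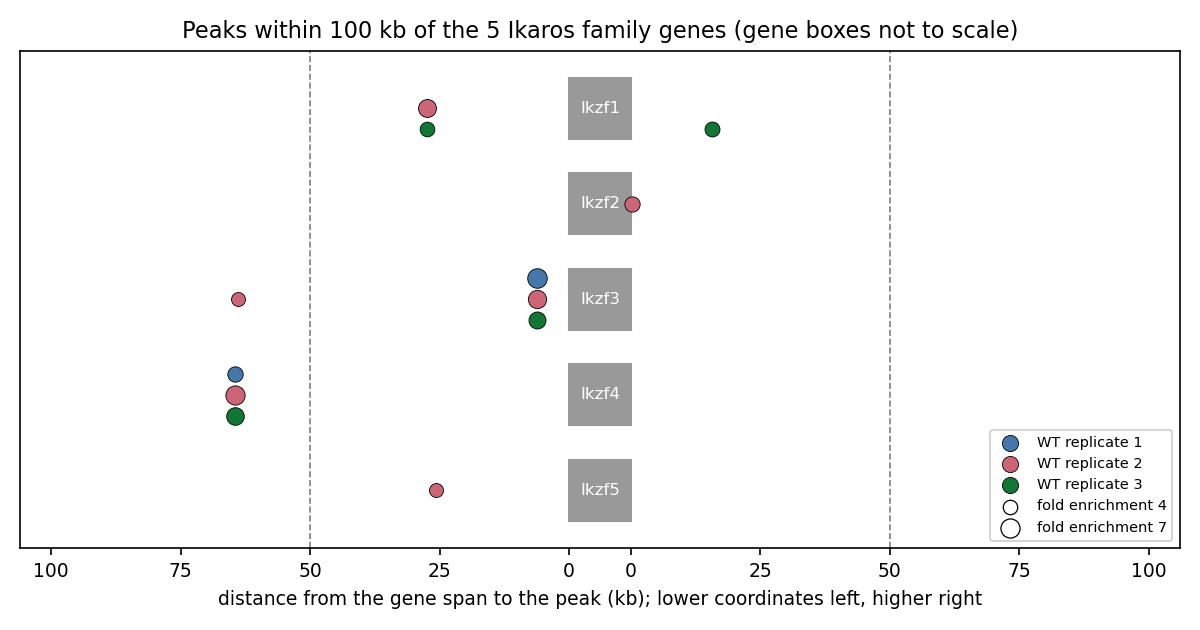
Peaks within 100 kb of each of the 5 genes, by distance from the gene span in kb, with point area proportional to the authors' fold enrichment, colour for the WT replicate and dashed lines at 50 kb. Points of all 3 replicates stand together 6.17 to 6.23 kb from Ikzf3 and 64.5 kb from Ikzf4. Those near Ikzf2 and Ikzf5 come from replicate 2 alone. Distances are drawn from the edge of each gene box, and no peak plotted lay within the span of a family gene.

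The sequences upstream of the start sites of Ikzf1 and Ikzf5 are shown because no peak of any list overlapped them. Of the 5 genes, 2 matched the RefSeq promoter table (GRCm38.p6), Ikzf1 with 2 start sites and Ikzf5 with 1; Ikzf2, Ikzf3 and Ikzf4 did not match. Each line gives the 250 bases before a start site, 5′ to 3′ on the gene's strand. Capitals mark GGGAA, the core of the DNA word that Ikaros fingers recognise, or its reverse complement TTCCC. The Pa2g4 promoter is added because it is the neighbour nearest to the peaks on the Ikzf4 side, and peaks of all 3 lists overlapped it.

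Ikzf1 start A (chr11:11685675-11685924, plus strand): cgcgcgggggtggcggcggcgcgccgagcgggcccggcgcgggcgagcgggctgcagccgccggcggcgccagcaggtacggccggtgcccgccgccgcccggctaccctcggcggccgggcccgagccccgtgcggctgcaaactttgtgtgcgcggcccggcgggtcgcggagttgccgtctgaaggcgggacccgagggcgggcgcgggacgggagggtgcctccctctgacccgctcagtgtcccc
Ikzf1 start B (chr11:11689927-11690176, plus strand): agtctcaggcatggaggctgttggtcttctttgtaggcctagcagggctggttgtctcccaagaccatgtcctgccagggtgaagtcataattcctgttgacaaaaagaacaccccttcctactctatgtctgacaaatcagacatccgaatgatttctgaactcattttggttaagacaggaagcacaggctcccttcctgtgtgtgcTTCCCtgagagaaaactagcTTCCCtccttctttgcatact
Ikzf5 (chr7:131410479-131410728, minus strand): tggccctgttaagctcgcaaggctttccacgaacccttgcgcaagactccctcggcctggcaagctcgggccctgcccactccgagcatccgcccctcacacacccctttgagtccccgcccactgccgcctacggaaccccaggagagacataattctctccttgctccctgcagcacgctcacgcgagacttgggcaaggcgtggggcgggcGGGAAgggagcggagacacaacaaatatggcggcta
Pa2g4 (chr10:128565935-128566184, minus strand): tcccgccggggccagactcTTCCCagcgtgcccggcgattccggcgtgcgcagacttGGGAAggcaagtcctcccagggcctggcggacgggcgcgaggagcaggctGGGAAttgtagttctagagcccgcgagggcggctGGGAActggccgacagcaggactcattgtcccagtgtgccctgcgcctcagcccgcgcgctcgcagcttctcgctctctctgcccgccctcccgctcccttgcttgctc

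The window before start A of Ikzf1 had 82.0% G or C and held 0 matches to GGGAA on either strand. The window before start B had 47.6% G or C and held 2 matches, and that of Ikzf5 held 1. By comparison 56.2% of 32851 RefSeq promoter windows of the same length held GGGAA. None of these 3 windows held the longer word TGGGAA, each match to which is also a match to GGGAA, and 21.6% of all windows did. The Pa2g4 window, chosen after its values were seen, held 4 matches to TGGGAA. At least as many were held by 5 of the 32851 windows, a limit set by its own count. The window of 2310057M21Rik, near Ikzf5 and overlapped by a peak of replicate 2, held 3 matches to GGGAA and 1 to TGGGAA. Among the 642 windows that overlapped a region in 2 or more lists, 62.6% held GGGAA and 18.8% held TGGGAA. A match is a description of the letters, not a binding site.

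Around Ikzf1, which encodes the precipitated protein, 3 peaks lay in the window, 0 in the list of replicate 1, 1 in that of replicate 2 and 2 in that of replicate 3. The region shared by replicates 2 and 3 was at chr11:11656396-11657456, 27.5 kb from the gene span (chr11:11684962-11772930) and 28.2 kb from the window before start A shown above. It lay inside Gm11999, a long noncoding RNA gene that is transcribed away from Ikzf1 on the opposite strand and whose span overlaps the start of the Ikzf1 span. The authors' gene column names Gm11999 and not Ikzf1. No protein-coding gene was nearer to the region than Ikzf1.

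The fold enrichment of this region, as the authors gave it, was 6.16 in replicate 2 and 4.15 in replicate 3, and replicate 1 had no peak there. Its −log10 q was 7.50 in replicate 2 and 2.36 in replicate 3. Within their own lists these values stood at percentile 82.5 of fold enrichment in replicate 2 (rank 365 of 2084) and at percentile 20.7 in replicate 3 (rank 1065 of 1342), where 100 is the strongest peak. The lists thus shared the place and differed in the rank. The gap of 61.8 percentile points compares with a median gap of 14.0 over the 965 regions shared by these lists. Of them, 16 (1.66%) had a gap as large. Over the 465 regions in these lists but not in replicate 1, the median gap was 16.6, and 12 (2.58%) had a gap as large. Both counts include the Ikzf1 region itself. Position and width were closely alike, with widths of 1036 bp and 1061 bp, 1036 bases in common, and percentiles of width of 96.7 and 96.5. It was therefore one of the broader peaks in both lists, whose median widths were 292.5 and 294 bp.

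Replicate 1 had the shortest list, and its nearest peak to Ikzf1 on chromosome 11 was 5138 kb away, in Ccm2. Of 43 other peaks of replicate 2 with a fold enrichment within 0.1 of the Ikzf1 value, 28 (65.1%) recurred in another list and 18 (41.9%) in all lists. Of 103 other peaks of replicate 3 within 0.1 of its value there, 65 (63.1%) recurred in another list and 18 (17.5%) in all lists. Whether the region is unbound or below the limit of replicate 1 cannot be told apart without read counts.

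The other peak in the window was in replicate 3 only, at chr11:11788526-11788821, 15.6 kb beyond the far end of Ikzf1. Its fold enrichment was 4.29, at percentile 25.0 of its list, with a −log10 q of 2.19. Of 80 other peaks of replicate 3 within 0.1 of that fold enrichment, 51 (63.8%) recurred in another list, whereas this one did not. The RefSeq gene nearest to this peak was Fignl1, which encodes an ATPase of recombination repair, 11.5 kb away. Outside the window, the nearest peak on each side was in replicate 2. One lay 106 kb beyond Ikzf1, inside Ddc, with a fold enrichment of 4.02. The other lay 163 kb from Ikzf1 on the opposite side, near Spata48, with 4.47.

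**Figure D2:**
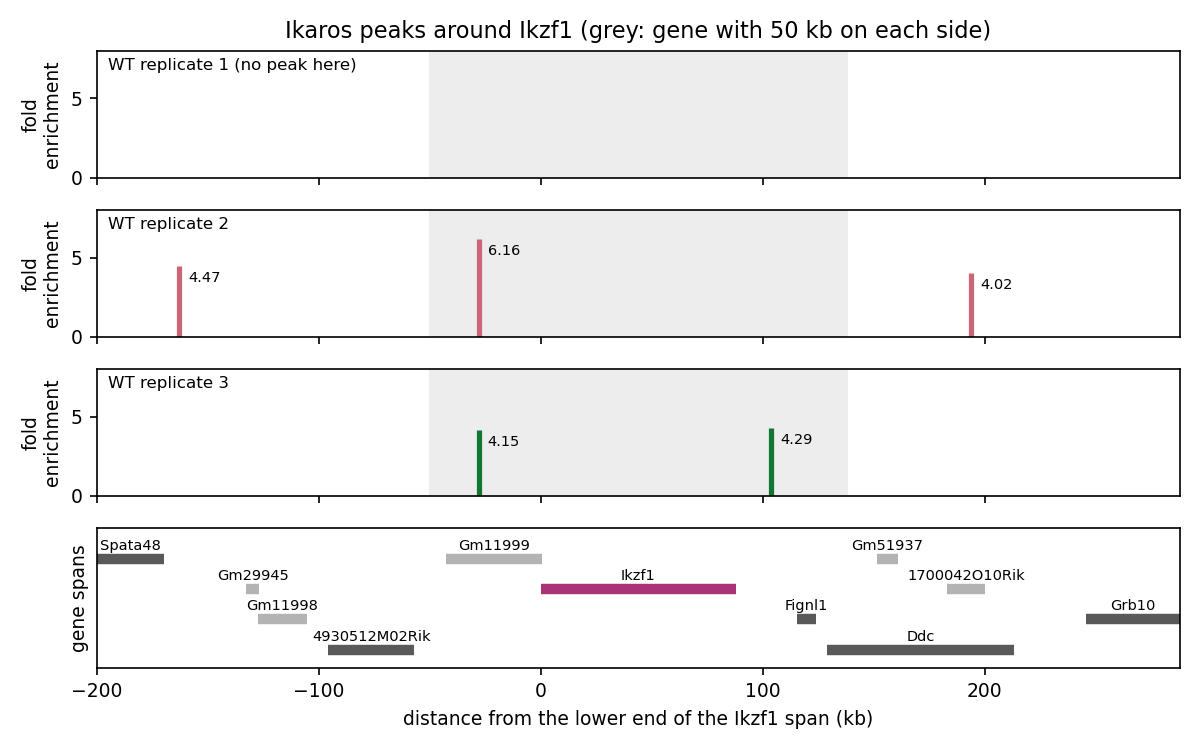
Fold enrichment of each peak within 200 kb of Ikzf1 in the 3 WT lists, against distance in kb from the lower end of the gene span, with gene spans below (dark grey protein-coding, light grey noncoding). Replicate 2 at 6.16 and replicate 3 at 4.15 stand at the same place inside Gm11999, replicate 1 has no peak in the range shown, and the Ikzf1 span is empty in every list.

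Other regions with the same pattern as the Ikzf1 region were found by presence in replicates 2 and 3, absence in replicate 1 and the smallest summed difference in percentile. The measure covers 2 lists, and 464 other regions had the same presence. The nearest in rank was a region over Bad, a cell death gene, with percentiles of 85.4 and 21.1 in replicates 2 and 3. It was followed by regions at Rnf167 and Slc25a11, Spata13, Stag1, and Adat2 and Pex3. The fold enrichments of these 5 regions ran from 5.58 to 6.41 in replicate 2 and from 3.97 to 4.23 in replicate 3. All 5 overlapped a protein-coding gene and the Ikzf1 region did not. The share of the 464 regions that overlap one was not counted, so this is not read as a trait of the Ikzf1 region.

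Ikzf3 encodes Aiolos, the partner of Ikaros named in the series title, and the region nearest to it was in all 3 lists. It lay at chr11:98457828-98458443, 6.17 kb from the Ikzf3 span (chr11:98464610-98546031) on the side of lower coordinates. This distance is to the nearer end of the span. The distance to the Ikzf3 start is not given, since no start site of Ikzf3 was matched. Fold enrichments were 7.34 in replicate 1, 6.43 in replicate 2 and 5.55 in replicate 3, and −log10 q values were 9.78, 8.92 and 6.64 in the same order. These peaks stood at percentiles 90.1, 85.5 and 64.8 of their lists, so the region was above the median in each. The peak was 242 bp wide in replicate 1, 603 bp in replicate 2 and 553 bp in replicate 3, and the replicate 1 peak lay wholly within the others.

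The gene column names Grb7, an adaptor of receptor tyrosine kinases, at this region and gives distances of 2765, 2467 and 2454 bp in replicates 1, 2 and 3. In the RefSeq table the region overlapped the end of the Mien1 span next to Ikzf3. A rule that assigns each region to its single nearest protein-coding gene therefore gives it to Mien1 and leaves Ikzf3 with no region. By distance alone, Ikzf3 was among the 3.26% of protein-coding genes nearest to a peak in replicate 1, the 9.22% nearest in replicate 2 and the 6.59% nearest in replicate 3. Zpbp2 lies 5.07 kb from the other end of Ikzf3. Replicate 2 had a further peak 64.0 kb from Ikzf3, over Pgap3, with a fold enrichment of 3.73 at percentile 10.7. Which gene, if any, the region acts on is not measured by these lists.

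Ikzf2 encodes Helios, and it was the 1 family gene that the authors' column named. The peak was in replicate 2 only, at chr1:69687451-69687708, 0.100 kb beyond the end of the gene span with higher coordinates (chr1:69531207-69687351). The gene column gives a distance of 205 bp. As background, Ikzf2 is transcribed from the minus strand, so that end is its start. The fold enrichment was 4.49, at percentile 41.6 of its list, with a −log10 q of 3.17 and a width of 258 bp. Of 155 other peaks of replicate 2 with a fold enrichment within 0.1 of this value, 45 (29.0%) recurred in another list. In replicates 1 and 3 the nearest peaks to Ikzf2 were 2668 and 4699 kb away. It was thus the closest peak to any family gene, and it was found in 1 list.

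Ikzf4, which encodes Eos, had 0 peaks within 50 kb in any list. Its nearest region, chr10:128566005-128566325, was in all 3 lists, 64.5 kb from the Ikzf4 span (chr10:128630839-128669671) and 0.071 kb from Pa2g4, which encodes a growth-linked nucleic acid binding protein. Fold enrichments there were 4.54, 7.12 and 5.96 in replicates 1, 2 and 3, at percentiles of 27.0, 89.7 and 73.5. Erbb3 and Rps26 lie between the region and Ikzf4. It enters the count of family genes near a shared region when the distance is widened to 100 kb, which raises the count from 2 to 3 of 5 and the background from 12.2% to 18.8%.

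Ikzf5 encodes Pegasus, and the peak nearest to it was in replicate 2 only. It lay at chr7:131362717-131362948, 25.7 kb from the Ikzf5 span (chr7:131388649-131410518), over the start of 2310057M21Rik. The fold enrichment was 3.75, at percentile 11.3 of the list, with a −log10 q of 1.93, the weakest of the peaks nearest to a family gene within 50 kb. Of 160 other peaks of replicate 2 within 0.1 of that fold enrichment, 53 (33.1%) recurred in another list. The nearest peaks in replicates 1 and 3 were 1713 and 523 kb away.

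Across the family the order of nearness changed with the list. In replicate 1 it was Ikzf3 at 6.23 kb and Ikzf4 at 64.5 kb, with the other genes at 1713 kb or more. In replicate 2 it was Ikzf2 at 0.100 kb, Ikzf3 at 6.17 kb, Ikzf5 at 25.7 kb, Ikzf1 at 27.5 kb and Ikzf4 at 64.5 kb. In replicate 3 it was Ikzf3 at 6.23 kb, Ikzf1 at 15.6 kb, Ikzf4 at 64.5 kb, Ikzf5 at 523 kb and Ikzf2 at 4699 kb. Median distances over all protein-coding genes were 858, 254 and 405 kb in replicates 1, 2 and 3, which follow the lengths of the lists. Ikzf3 and Ikzf4 were the family genes nearer than the median in every list.

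**Figure D3:**
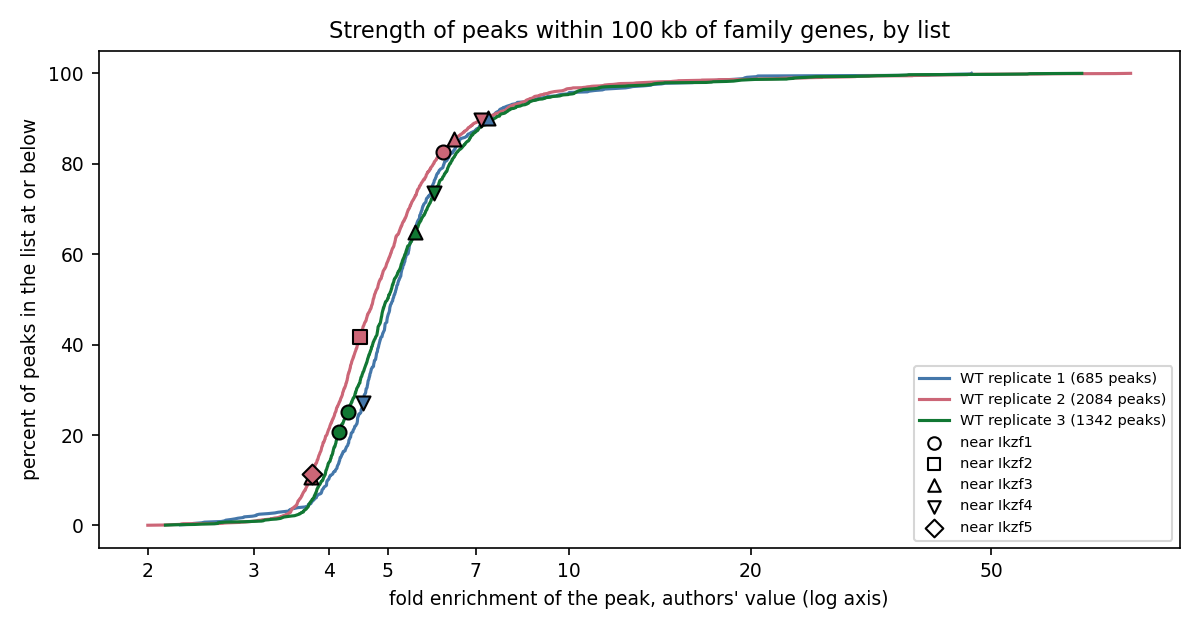
Percent of peaks in each list at or below a given fold enrichment (log axis), 1 line for each WT replicate, with symbols for peaks within 100 kb of each family gene. Symbols near Ikzf3 at about 6 kb (5.55 to 7.34) lie above the middle of their lines, that near Ikzf5 at 3.75 and that of Ikzf3 at 3.73 (over Pgap3) lie low, and the circles near Ikzf1 lie far apart, at 6.16 in replicate 2 and 4.15 and 4.29 in replicate 3.

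None of the peaks within 100 kb of a family gene reached the strongest sites of its list. The highest fold enrichments in the lists were 46.4, 85.2 and 70.7 in replicates 1, 2 and 3, and the highest near the family were 7.34 (Ikzf3), 7.12 (Ikzf4) and 5.96 (Ikzf4).

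Genes of the proteins that work with, act on or answer to Ikaros were counted by the same rule, a region in 2 or more lists within 50 kb, beside the background of 12.2%. Co-repressors and remodellers that bind Ikaros had 1 of 19 genes, Gatad2b, a subunit of the NuRD complex, with the region 38.9 kb away. Transcription factors reported to act on the Ikzf1 locus had 4 of 15, Pax5, Lmo2, Rbpj and Spi1. Their strongest regions lay 45.7, 45.7, 0 and 11.6 kb from the spans. Genes of turnover and modification of Ikaros proteins had 2 of 13, Ppp1ca and Csnk2a2, subunits of a phosphatase and of casein kinase 2. Their strongest regions lay 18.9 and 0 kb from the spans. Genes described as Ikaros targets in lymphocytes had 10 of 20, and the strongest regions overlapped Cish and Cdk6 or lay 21.6 kb from Ifng and 23.9 kb from Gzmb. Other zinc finger factors of lymphocytes had 2 of 19 measured, Egr1 and Klf13. The lists overlap in a few genes and were drawn up with earlier results of these data known, so the counts support nothing by themselves.

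A peak list holds no expression values, so the labelled cell type could not be checked against its markers. By the same positional rule (background 12.2%), regions lay near 4 of 7 NK cell markers, Ncr1, Klrb1c, Eomes and Tbx21 (interval 18.4 to 90.1%). They lay near 3 of 5 B cell markers, Cd79a, Pax5 and Cd79b (interval 14.7 to 94.7%). The strongest regions near these 3 were 12.6, 45.7 and 38.1 kb away. A shared region overlapped the span of 1 NK cell marker and of 0 B cell markers. The counts were 0 of 5 T cell markers (interval 0 to 52.2%) and 0 of 4 myeloid markers (interval 0 to 60.2%). Both of these intervals include the background. The NK and B cell intervals lie above the background and overlap both of the others. The markers are few and were chosen, not sampled, and no test compared the lists, so no contrast is drawn.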

How the data were processed

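Peak lists of 3 WT libraries were used. Per the submitters' processing notes, Subread, Picard, SAMtools, MACS2 and edgeR 3.20.0 were used on build mm10, with no roles given. The control library, the q threshold and the annotation behind the gene column are not given in the sources used here. Per the file headers, every peak has a fold enrichment (a linear ratio) and −log10 values of p and q. The deposited score, 10 times the −log10 q cut to a whole number, was not used. The list whose peak names carry R4 was matched to the WT sample described with that number, titled replicate 3.

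Rows were reduced to 1 per peak, and peaks sharing 1 base or more were merged. Distances ran from a peak to the span of a gene in the RefSeq table of GRCm38.p6, the assembly of mm10, where 21896 protein-coding genes have coordinates. Fold enrichment was ranked within its own list only. No test was run, since the lists hold called peaks and the KO libraries were not analysed here. Counting error is given as Clopper-Pearson intervals at 95%, over genes. Motifs were searched on both strands. Named genes were the 5 members, genes in the Ikzf1 window or next to a member, up to 4 genes of each list by mean percentile with all hits of shorter lists, and the 5 regions most like the Ikzf1 region. Pa2g4 and the genes at each nearest peak were named after their values were seen. The members and gene lists were chosen with earlier results of these data known. Counting was tested on simulated data. The work was done with pandas 2.3.3, NumPy 2.4.6 and SciPy 1.17.1 under Python 3.11.15, and figures with matplotlib 3.10.9.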

Additional observations from a re-analysis of the deposited data

How the results depend on the processing

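No paired analysis was possible because no list of the KO group was analysed here, so that no count compares lists of the WT and KO groups. Ranking by pileup and matching by summit were not run, since the columns used here give neither. Matching by midpoints within 200 bp, chosen after seeing the data, gave the same counts, as did an overlap of at least 50% of the shorter peak.

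With a −log10 q of 5 or more, the Ikzf1 window held 1 peak in place of 3 and 0 shared regions in place of 1. The gene column then named 0 members in place of 1, and 1 member, Ikzf3, kept a shared region in place of 2. With the gene span only, the 3 positional counts were 0. With 20 kb on each side they were 1 peak, 0 shared regions and 1 member (Ikzf3). By the nearest protein-coding gene within 50 kb, 1 member had a shared region, which was then Ikzf1. Without 1 replicate, peaks in the window ranged from 1 to 3, shared regions there from 0 to 1, members named from 0 to 1 and members with a shared region from 1 to 2. The shared Ikzf1 region was lost without replicate 2 or replicate 3, and Ikzf3 kept its region without any 1 replicate. Ranked by −log10 p, the Ikzf1 region stood at percentile 81.0 in replicate 2 and 16.8 in replicate 3. Fewer peaks, lists or bases searched leave fewer hits by construction. With read depth unknown, an absent peak may be weak or unbound, and these cannot be told apart.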

Other observations

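Gene names at these peaks depend on the annotation. The authors' column puts the replicate 3 peak beyond Ikzf1 at a distance of 0 bp from Fignl1. In RefSeq the nearer end of the Fignl1 span is 11.5 kb from the peak. That is the end opposite its start site, since Fignl1 is on the minus strand. At the Ikzf3 side region the column names Grb7 and RefSeq places an end of Mien1 inside it. For Ikzf2 the distances were 205 bp in the column and 0.100 kb in RefSeq.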
